A study of Homo sapiens with 11 samples.

Results

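Most of the genes described here move acid, base or other ions across membranes or interconvert carbon dioxide and bicarbonate. They were chosen by symbol alone: a symbol that starts with SLC4A, SLC9A, SLC12A, SLC26A or ATP6V, or that is CA with a number and at most a letter A or B, CA9 left out. The rule gave 64 genes on 74 probes, of 14941 genes on 17043 probes that carried a single gene symbol and 22464 probes in all. The group was assembled with the behavior of SLC4A8 on these arrays in view, so the values of SLC4A8 between plastic and Matrigel are given as a description and were not tested.

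RT4, a human cell line derived from a bladder papilloma, was grown on plastic (2 arrays, replicates 1 and 2; the label of replicate 2 adds "Matrigel next", and it was taken as plastic) or moved from plastic onto Matrigel, a gel of basement membrane proteins that the study treats as cancer remodeled extracellular matrix. Matrigel cultures were harvested at 12 hours and on days 1, 2, 3, 4, 6, 7, 8 and 9, with 1 array for each time point (9 arrays). No drug or genetic change was given in the labels, all groups came from the same line, and each gene level is a mean over all cells of a culture. For such cultures, fewer cells of a type and less RNA per cell cannot be told apart.

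Cells hold their internal pH by exporting acid and importing bicarbonate. Most SLC4A proteins carry bicarbonate, and SLC9A proteins exchange sodium for protons. SLC12A proteins move chloride with sodium or potassium and set cell volume, and SLC26A proteins exchange chloride, bicarbonate, sulfate and other anions. The V-ATPase is a proton pump of endosomes, lysosomes and, in some epithelia, the cell surface. Its V1 sector breaks down ATP in the cytosol and its V0 sector carries protons through the membrane. Carbonic anhydrases hydrate carbon dioxide to bicarbonate and a proton.

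Levels are 10 to the power of the deposited log10 values. By the study's methods these values began as SDs of an array's noise above its zero point and were then adjusted between arrays by regression, so a level is no longer a number of noise SDs. Set against the raw intensities, a level of 3 stood 0.252 and 0.193 noise SDs above the zero point on plastic and from 0.766 to 2.73 on Matrigel, and a level of 10 stood 1.39 and 1.10 above it on plastic and from 2.72 to 6.93 on Matrigel. Plastic levels of about 10 or less were therefore within the noise of those arrays. Levels under 3 were set to 3 before log2 values were taken. Tests are limma fits on 21480 probes, with Benjamini-Hochberg adjustment over all of them and a threshold of 0.05. A probe entered with a level above 3 on 2 arrays, so one that was below 3 in a whole group entered through the other group alone and its difference was fixed by the filter and the floor. Such members are described by their values, without a test. Each Matrigel array is a different time point, and nothing in the labels says that the 2 plastic arrays came from separate cultures, so their spread may be technical.

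The arrays of the 2 groups differed as a whole. Median raw intensity was 162 and 140 on plastic and from 224 to 482 on Matrigel, and the zero points were 3.65 and 1.55 on plastic and from 28.1 to 62.2 on Matrigel. Substrate and array handling cannot be told apart in this design. Of 15 urothelial and epithelial marker genes 14 were on the array. KRT19, KRT7 and KRT18 were bright on all arrays, UPK1B passed 3 on 1 array and FGFR3 on 4 of 11, CDH1 was the only one called (lower on Matrigel), and the mean log2 level of the list was 4.97 and 4.87 on plastic and 4.58 to 4.91 on Matrigel. Of 11 probes for fibroblast, endothelial and leukocyte genes, 6 read above 3 on every array. The mean log2 level of the 11 was 3.33 and 3.29 on plastic and 3.53 to 3.97 on Matrigel. The fit called 4 of them higher on Matrigel and 3 lower, where 45.2% of all probes were called either way. VIM, PDGFRB and PECAM1 lay below 3 on both plastic arrays. COL1A2 and the COL3A1 probe at 8.96 and 9.59 on plastic lay below 3 on all Matrigel arrays. For PDGFRB, COL1A2 and that COL3A1 probe, filter and floor decided the call, and nothing is read from it. PTPRC, a leukocyte gene, read 32.7 and 34.0 on plastic. CD3E, a T-cell gene, read 5.31 and 5.09 on plastic, within the noise, and 26.8 to 37.0 on Matrigel (6.25-fold higher, adjusted p = 1.4e-08 with limma). Readings of this size for genes of other cell types stood in the same range as many of the transporters below, and their part in the results was not tested.

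SLC4A8, a sodium-driven chloride/bicarbonate exchanger, read 54.0 and 52.5 on plastic. These were 15.4 and 12.4 noise SDs above the zero point in the raw readings. On all 9 Matrigel arrays it lay at the lowest value the array had. The 2 groups were fully apart, and the drop was already complete at 12 hours. With the floor at 3 the log2 difference was -4.15 on the deposited scale, but the size depends on scale and floor: it was -2.42 where values were made anew from raw intensity (rebuilt values) and -2.04 with quantile normalization. On the deposited scale no other member probe of the 73 that passed the filter on low values differed as much.

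**Figure D1:**
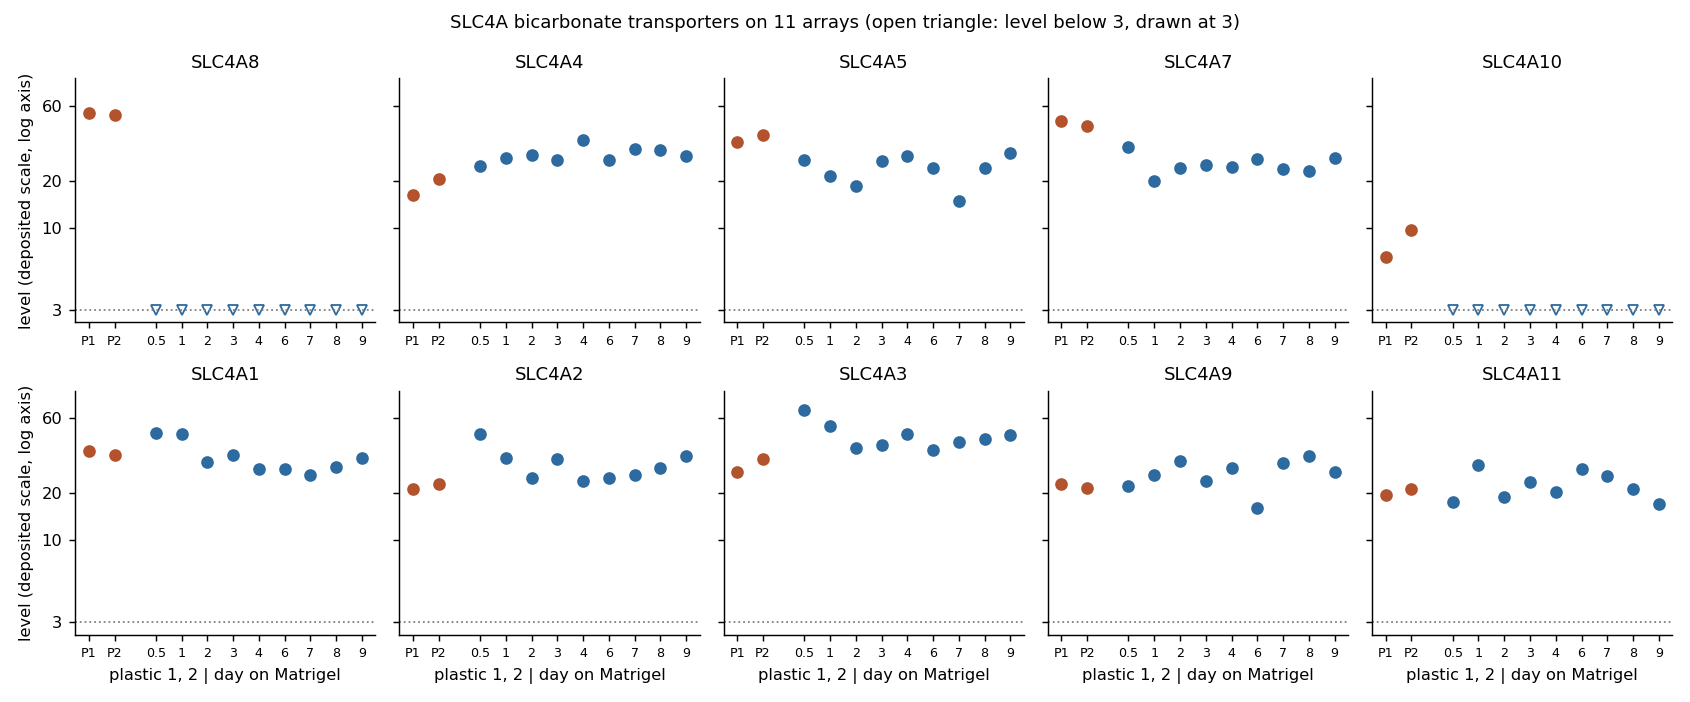
Levels of the 10 SLC4A genes on each array, on the deposited scale (log axis). P1 and P2 are the plastic arrays, other marks are days on Matrigel, and open triangles lie below 3 and are drawn at 3. SLC4A8 stood at 54.0 and 52.5 on plastic and below 3 on all 9 Matrigel arrays, whereas 8 of the other 9 genes stayed above 3 on every array.

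The raw readings of SLC4A8 went further than a low level. Raw intensity was 594.6 and 522.7 on plastic, above 96.1% and 95.1% of all probes. On Matrigel it ran from -2.8 to 7.2 with a median of 2.8, below the zero point of each array and above 0.7% to 2.6% of the probes. Of all probes, 132 lay within 10 raw units of 0 on all 9 Matrigel arrays, and SLC4A8 was the only one of these with a gene symbol. It was also the only one above 100 on both plastic arrays. Of the other 131, all without a symbol, 122 lay within 10 units of 0 on both plastic arrays as well. On both plastic arrays 670 probes lay within 10 units of 0, 330 of them with a gene symbol. Of these 670, 98 were above 100 on all Matrigel arrays. These counts do not mirror those on Matrigel. The zero points lay within 10 units of 0 on plastic alone, and plastic had fewer arrays.

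Of the probes with adjacent addresses, those with a gene symbol did not follow it. DNAJC21, the probe before it, read 316 and 323 on plastic and 454 to 941 on Matrigel. The probe after it has no symbol and was dim on plastic, at 66.3 and 60.8. Like SLC4A8, this probe read lower on all Matrigel arrays, at 7.3 to 47.0. TSG101 and CTNNA2, in the adjacent rows, were above 322 on all arrays. Whether the SLC4A8 spot was present on the Matrigel arrays was not tested. The probe is listed with a RefSeq record, and of the 50 member probes listed with such a record it was the only one whose record was not among the transcripts given for its gene in the RefSeq table used here.

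**Figure D2:**
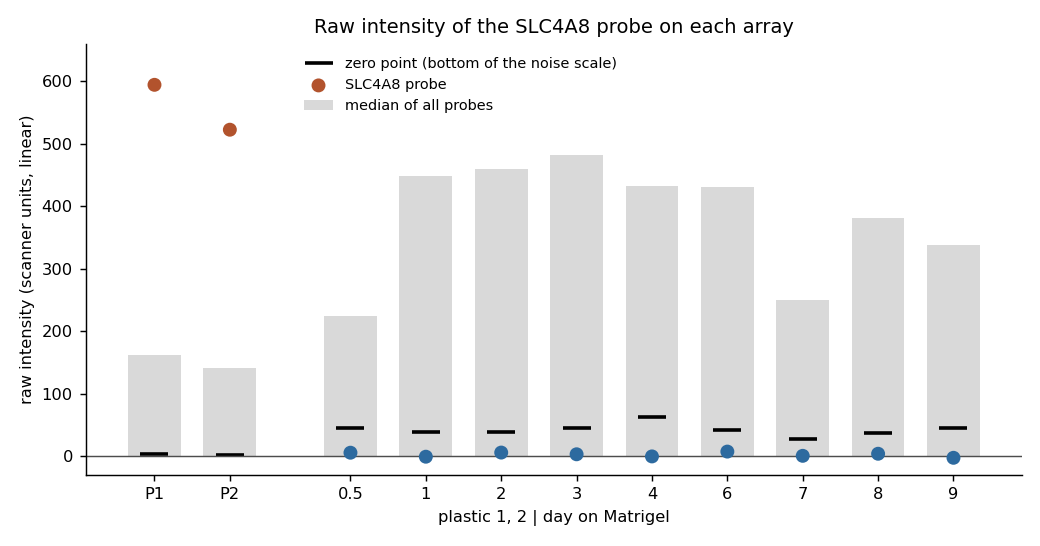
Raw intensity of the SLC4A8 probe (points; plastic in brown, Matrigel in blue), the median of all probes (gray bars) and the zero point of the noise scale (black dashes) on each array, on a linear axis in scanner units. SLC4A8 was 594.6 and 522.7 on plastic and -2.8 to 7.2 on Matrigel, under the zero point of all 9 arrays.

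The region upstream of SLC4A8 is shown since this member had the largest fall. It spans the 150 bases before the RefSeq start site, at chr12:51424681-51424830 on the plus strand of GRCh38.p14. Capitals mark CCAAT, the element bound by the factor NF-Y, read on either strand (here as ATTGG).

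SLC4A8: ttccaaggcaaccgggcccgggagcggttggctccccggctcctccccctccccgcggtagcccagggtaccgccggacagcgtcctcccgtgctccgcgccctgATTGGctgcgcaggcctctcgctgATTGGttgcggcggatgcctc

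The 300-base window of SLC4A8 (250 bases before the start and 50 after) held 2 copies, as do 2 or more in 11.3% of 27305 windows of all genes. The windows of SLC4A5 and SLC4A7 held 1 copy each and those of SLC4A2, SLC4A3, SLC4A4, SLC4A9 and SLC4A10 none. A match of letters is a description and not a binding site.

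The other genes of the SLC4A family changed less, and in both directions. Besides SLC4A10, which was below 3 on all of Matrigel, 2 rose, 2 fell and 4 did not pass the test. The fit held 72 member probes other than SLC4A8 and called 12 higher and 19 lower. Of these 72, 11 lay below 3 in a whole group, 7 of them among the probes called lower and 1 among those called higher. Of the 61 that were above 3 in both groups on at least 1 array, 11 rose, 12 fell and 38 did not pass (37.7% called). Of all 21480 probes 45.2% passed in this comparison, 22.8% as higher and 22.4% as lower. Of the 18226 probes above 3 in both groups 40.4% passed, 21.1% as higher and 19.3% as lower. The share called among the members was therefore near that of the array as a whole. Of the 61, Matrigel lay wholly above plastic for 12 and wholly below for 11. This was so for 20.8% and 24.4% of all 21480 probes, which include those below 3 in a whole group. For 6 of the 11 members that rose (SLC26A11, SLC12A4, CA7, ATP6V1H, CA8 probe 1 and ATP6V0A2 probe 1), both plastic readings were less than 3 noise SDs above the zero point, so the size of these rises rests on plastic values within or near the noise. This was so for 0 of the 12 that fell.

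Among the other sodium-dependent bicarbonate carriers, SLC4A7, an electroneutral sodium bicarbonate cotransporter, read 47.8 and 44.9 on plastic and 19.8, 24.5 and 33.1 (lowest, median and highest) on Matrigel. All Matrigel arrays were below both plastic arrays, a 1.83-fold fall (log2 -0.88, SE 0.15, adjusted p = 7.0e-04 with limma). SLC4A5, an electrogenic cotransporter, read 35.6 and 39.0 on plastic against 14.8, 24.3 and 30.1 on Matrigel, and the groups did not overlap. It fell by 0.67 on the log2 scale (SE 0.23, adjusted p = 0.034 with limma), a call that was lost without plastic replicate 1 (adjusted p = 0.13) and without replicate 2 (0.22).

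SLC4A4, the electrogenic sodium bicarbonate cotransporter of kidney and pancreas, went the other way. It read 16.2 and 20.5 on plastic and 25.0, 29.0 and 36.6 on Matrigel. Every Matrigel array was above both plastic arrays, a 1.61-fold rise (log2 0.69, SE 0.14, adjusted p = 0.0018 with limma). SLC4A10, a sodium-driven exchanger known mainly from brain, read 6.53 and 9.71 on plastic and below 3 on all Matrigel arrays. On plastic it stood 0.757 and 1.06 noise SDs above the zero point, within the noise. Its raw intensity was 32.7 and 46.2 on plastic and 25.5 to 50.4 on Matrigel, so the raw readings overlapped, unlike those of SLC4A8.

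Of the anion exchangers, SLC4A3 read 27.2 and 32.8 on plastic and 37.7, 44.5 and 67.5 on Matrigel, highest at 12 hours on the deposited scale. It lay above plastic on all Matrigel arrays and rose 1.53-fold (log2 0.62, SE 0.18, adjusted p = 0.018 with limma), a call that was lost without plastic replicate 1 (adjusted p = 0.20) or 2 (0.063). SLC4A2, the widely expressed anion exchanger, read 21.2 and 22.7 on plastic against 24.0, 29.1 and 47.9, also without overlap, but did not pass (log2 0.46, SE 0.22, adjusted p = 0.11). SLC4A1, the exchanger of red blood cells, read 37.1 and 35.2 on plastic and 26.1 to 48.1 on Matrigel. SLC4A9 (log2 0.24, SE 0.23) and SLC4A11, a transporter of the corneal endothelium (log2 0.12, SE 0.21), overlapped between the groups and did not pass.

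The sodium/proton exchangers showed little. SLC9A8, an exchanger of the Golgi and endosomes, read 32.4 and 31.5 on plastic and 33.9, 46.1 and 52.1 on Matrigel. It lay above plastic on all 9 arrays and rose by 0.50 on the log2 scale (SE 0.13, adjusted p = 0.0085 with limma). Without plastic replicate 1 the adjusted p was 0.059, and without replicate 2 it was 0.087. SLC9A2, SLC9A3 and both probes of SLC9A5 did not pass, with log2 differences from -0.19 to 0.41.

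Of 7 SLC12A probes above 3 in both groups 1 rose, 2 fell and 4 did not pass. The share called was 42.9%, against 40.4% of all such probes. A further 2 of the family lay below 3 in a whole group. SLC12A4, a potassium chloride cotransporter that lets cells shed volume, read 9.58 and 8.73 on plastic and 13.2, 30.1 and 42.0 on Matrigel. The low Matrigel values were those of 12 hours (13.2) and day 6 (13.2), yet all 9 exceeded plastic. It rose 2.83-fold (log2 1.50, SE 0.41, adjusted p = 0.011 with limma), and the adjusted p was 0.08 without plastic replicate 1, 0.11 without replicate 2 and 0.099 with quantile normalization.

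SLC12A7, a second potassium chloride cotransporter, was lower on Matrigel from day 1 on. It read 59.5 and 63.5 on plastic, 64.2 at 12 hours and 42.6 to 50.9 on later days. The groups overlapped through the 12-hour array alone. The difference over all Matrigel arrays was small (log2 -0.36, SE 0.13, adjusted p = 0.037 with limma), and it did not pass without plastic replicate 1 (0.12) or replicate 2 (0.24). SLC12A1, the sodium potassium chloride cotransporter of the kidney, read 36.5 and 38.3 against 25.6, 29.5 and 33.4 and was also lower (log2 -0.32, SE 0.10, adjusted p = 0.018), a call lost without either plastic array. The 2 probes of SLC12A2, the widely expressed form of that cotransporter, were at different levels. Probe 1 was near the floor (5.55 and 6.13 on plastic, below 3 on Matrigel), while probe 2 read 29.0 and 27.2 against 22.5, 27.0 and 29.0 and did not pass (log2 -0.11, SE 0.12). SLC12A3, SLC12A8 and SLC12A9 had log2 differences from -0.07 to 0.35 and did not pass. SLC12A5, a neuronal potassium chloride cotransporter, lay below 3 on plastic and had a median of 9.80 on Matrigel.

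SLC26A11, a sulfate and anion transporter of lysosomes and the cell surface, had the largest rise of any member with a level above 3 on all arrays. It read 7.11 and 4.51 on plastic and 16.5, 25.6 and 30.01 on Matrigel, lowest at 12 hours. Every Matrigel array was more than 2-fold above both plastic arrays. The rise was 4.36-fold (log2 2.13, SE 0.22, adjusted p = 1.5e-05 with limma), and it shrank to a log2 of 1.47 with rebuilt values and 0.65 with quantile normalization. Its plastic readings were 0.854 and 0.347 noise SDs above the zero point, within the noise, against 4.62 to 14.3 on Matrigel. SLC26A2, a sulfate transporter, fell on probe 1. This probe read 29.3 and 31.5 on plastic against 13.8, 19.4 and 26.1 (log2 -0.64, SE 0.21, adjusted p = 0.027, lost without either plastic array). Its probe 2 read 6.23 and 9.06 on plastic and below 3 on every Matrigel array. Probe 2 of SLC26A6 lay below 3 on both plastic arrays and had a median of 3.58 on Matrigel. The other 6 probes of the family had log2 differences from -0.42 to 0.42 and did not pass. Among them was SLC26A3, a chloride/bicarbonate exchanger of the gut (29.1 and 28.6 against 26.3, 32.8 and 50.5).

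**Figure D3:**
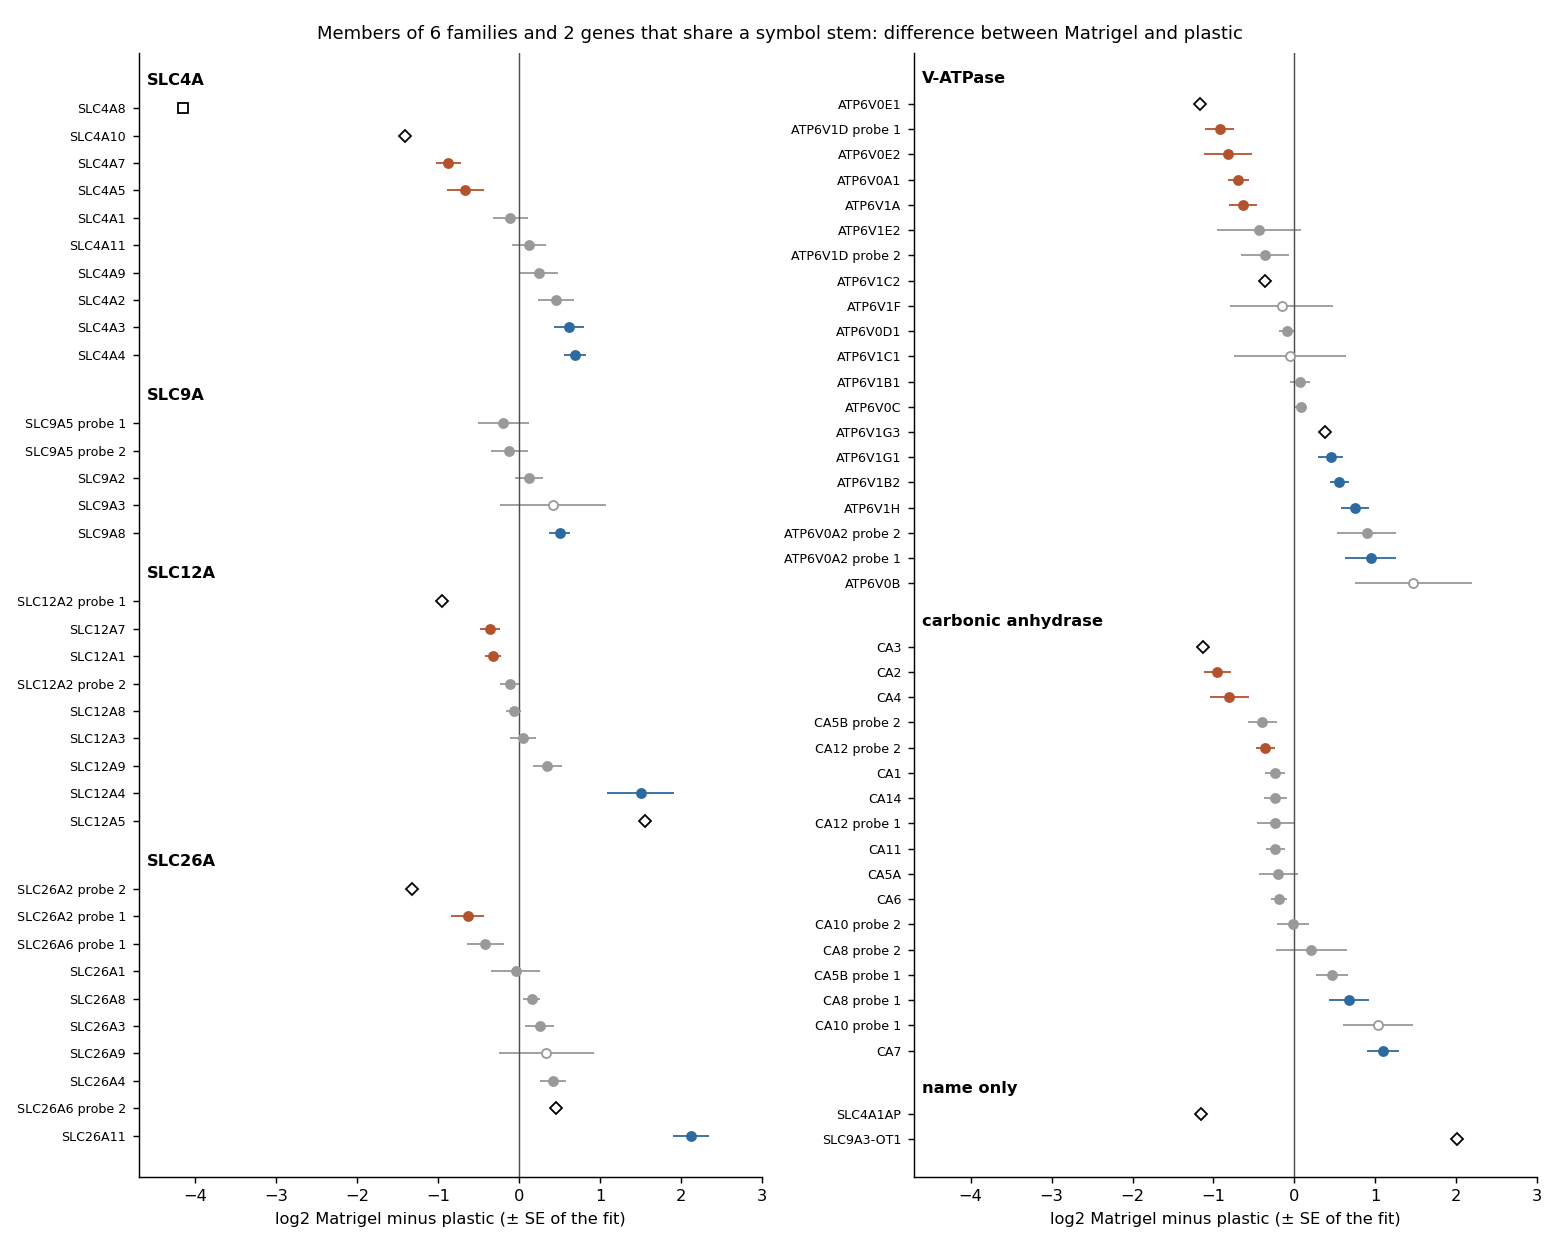
Log2 difference between Matrigel and plastic for the 73 probes that passed the filter on low values, by family, with the SE of the fit. Blue probes passed as higher, brown as lower and gray did not pass, open marks had an array below 3, and black open diamonds and the square (SLC4A8, -4.15) were below 3 in a whole group and are shown without an SE or a call. Among the tested probes SLC26A11 (2.13) lies farthest to the right.

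The V-ATPase subunits changed in both directions. Of 17 probes above 3 in both groups 4 rose, 4 fell and 9 did not pass (47.1% called, against 40.4% of all such probes). In V1 there were 3 higher, 2 lower and 5 not passing, and in V0 there were 1 higher, 2 lower and 4 not passing. ATP6V0E1, ATP6V1C2 and ATP6V1G3 lay below 3 in a whole group, and the probe of ATP6V1E1 lay below 3 on all arrays and was not tested.

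In the V1 sector the catalytic subunit A and the paired subunit B2 went opposite ways. ATP6V1A read 40.3 and 45.7 on plastic and 22.8, 26.8 and 37.9 on Matrigel, all below plastic (1.55-fold lower, log2 -0.63, SE 0.17, adjusted p = 0.0098 with limma). ATP6V1B2, the B subunit found in most tissues, read 24.8 and 23.0 on plastic and 29.0, 36.9 and 40.9 on Matrigel, all above plastic (1.47-fold higher, log2 0.56, SE 0.12, adjusted p = 0.003). Both calls were lost without plastic replicate 2. ATP6V1B1, the form of kidney and inner ear, read 23.0 and 23.2 against 19.9, 24.7 and 29.1 and did not pass. ATP6V1H, a regulatory subunit, read 11.7 and 13.2 on plastic against 15.3, 21.0 and 25.4 and rose 1.68-fold (log2 0.75, SE 0.18, adjusted p = 0.0051, lost with quantile normalization and without plastic replicate 1). ATP6V1G1, a stalk subunit, overlapped only at 12 hours (19.7 and 22.9 on plastic, 22.6 to 35.3 on Matrigel) and was higher by a log2 of 0.45 (SE 0.15, adjusted p = 0.032, lost without either plastic array).

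ATP6V1D, the central rotor subunit, had 2 probes. Probe 1 read 45.8 and 53.7 on plastic against 19.4, 26.8 and 32.6 and fell 1.90-fold (log2 -0.92, SE 0.18, adjusted p = 0.0017 with limma). Probe 2 read 48.8 and 39.9 against 15.9, 37.0 and 45.9, overlapped and did not pass (log2 -0.36, SE 0.30). ATP6V1C2, a C subunit isoform, read 3.10 and 4.79 on plastic and below 3 on all Matrigel arrays. ATP6V1C1, ATP6V1E2 and ATP6V1F spread widely between days, with log2 differences from -0.44 to -0.05, and did not pass. ATP6V1G3 lay below 3 on both plastic arrays and spread widely on Matrigel, up to 10.9.

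In the V0 sector the isoforms of the large a subunit, which steer the pump to different membranes, also diverged. ATP6V0A1 read 41.1 and 39.4 on plastic and 21.3, 25.7 and 29.9 on Matrigel, with no overlap (1.62-fold lower, log2 -0.69, SE 0.13, adjusted p = 0.0010 with limma). ATP6V0A2 read 13.2 and 15.0 on probe 1 and 9.78 and 10.6 on probe 2 on plastic, against 16.5 to 49.2 and 12.3 to 30.3 on Matrigel. The 2 probes gave log2 rises of 0.94 (SE 0.32, adjusted p = 0.031) and 0.90 (SE 0.36, adjusted p = 0.066), all Matrigel arrays above plastic on both. The call on probe 1 was lost without either plastic array and with quantile normalization.

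Among the small V0 subunits, ATP6V0E2 read 37.3 and 39.5 on plastic against 12.5, 24.6 and 29.0 and fell (log2 -0.82, SE 0.30, adjusted p = 0.042, lost without either plastic array). ATP6V0E1 read 6.26 and 7.30 on plastic and below 3 on Matrigel. The proteolipid ring subunit ATP6V0C read 48.7 and 46.6 against 46.4, 48.9 and 55.8 and did not pass (log2 0.08, SE 0.08), nor did the d subunit ATP6V0D1 (47.6 and 47.5 against 37.7, 44.1 and 51.2). ATP6V0B, a further ring subunit, read 9.00 and 6.26 on plastic, 21.4 to 36.0 on 8 Matrigel arrays and 2.36 on day 3. It did not pass with all arrays (adjusted p = 0.12 with limma). Without the day 3 array, left out here after its value was seen, its log2 rise was 1.82. Its plastic readings were 1.20 and 0.559 noise SDs above the zero point, so the size of this rise rests on values within the noise.

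V-ATPase genes are known targets of TFEB, a lysosomal regulator that binds elements around the E-box CACGTG. The 4 V-ATPase promoters that held this box are shown because their genes did not share a direction. Each stretch covers bases 90 to 11 before the RefSeq start site (GRCh38.p14), with CACGTG in capitals. The positions are chr1:43974870-43974949 on the plus strand for ATP6V0B, chr16:67481168-67481247 on the minus strand for ATP6V0D1, chr7:149872878-149872957 on the plus strand for ATP6V0E2 and chr9:114587679-114587758 on the plus strand for ATP6V1G1.

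ATP6V0B: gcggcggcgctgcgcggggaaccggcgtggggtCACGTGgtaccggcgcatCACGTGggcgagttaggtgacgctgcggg

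ATP6V0D1: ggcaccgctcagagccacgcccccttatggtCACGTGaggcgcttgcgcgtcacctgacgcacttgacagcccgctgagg

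ATP6V0E2: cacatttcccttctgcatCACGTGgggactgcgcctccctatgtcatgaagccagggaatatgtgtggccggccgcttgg

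ATP6V1G1: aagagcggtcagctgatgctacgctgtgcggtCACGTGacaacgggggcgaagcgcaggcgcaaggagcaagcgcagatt

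Of the 13 V-ATPase genes with a window in the table, 4 (30.8%) held CACGTG, which reads the same on both strands, against 2030 of 27305 windows of all genes (7.43%). The longer form TCACGTGA, which contains the box, stood in the windows of ATP6V0D1 and ATP6V1G1, and in 1.04% of all windows. Of the 4 genes, ATP6V1G1 passed as higher, ATP6V0E2 passed as lower, and ATP6V0B and ATP6V0D1 did not pass. Windows were found for 49 of the 64 member genes.

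Of 16 carbonic anhydrase probes above 3 in both groups 2 rose, 3 fell and 11 did not pass. The share called was 31.2%, against 40.4% of all such probes. CA2, the fast cytosolic enzyme, read 46.7 and 43.1 on plastic and 18.6, 22.8 and 32.7 on Matrigel. No Matrigel array reached plastic, and the level fell 1.93-fold (log2 -0.95, SE 0.17, adjusted p = 8.3e-04 with limma). CA4, an enzyme anchored on the outer cell surface, read 49.9 and 47.9 against 16.1, 29.8 and 36.4 and fell 1.75-fold (log2 -0.81, SE 0.24, adjusted p = 0.019, but 0.13 and 0.12 without plastic replicates 1 and 2). CA12, a surface enzyme of many tumors, fell slightly on probe 2 (38.7 and 31.6 against 22.7, 27.6 and 31.5; log2 -0.36, SE 0.12, adjusted p = 0.026, lost without plastic replicate 1). Probe 1 of CA12 read 30.6 and 28.3 against 19.1, 23.8 and 34.0 and did not pass. CA3, an enzyme of muscle with low activity, read 5.64 and 7.68 on plastic and below 3 on all Matrigel arrays.

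CA7, a cytosolic enzyme known from brain, went up. It read 10.6 and 11.02 on plastic and 18.0, 23.3 and 29.3 on Matrigel, with no overlap, a 2.13-fold rise (log2 1.09, SE 0.20, adjusted p = 9.2e-04 with limma). With quantile normalization its log2 was 0.34 and the adjusted p 0.064. CA8, CA10 and CA11 are related proteins that lack the enzyme activity. Probe 1 of CA8 read 12.9 and 13.5 on plastic and 12.5, 21.6 and 26.6 on Matrigel, with only the 12-hour array not above plastic (log2 0.67, SE 0.25, adjusted p = 0.044). Its call was lost without either plastic array, and its probe 2 read 11.6 and 4.60 against 4.19, 8.97 and 16.2 and did not pass. The other enzymes, CA1, CA5A, CA5B, CA6 and CA14, had log2 differences from -0.40 to 0.46 and did not pass.

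Besides SLC4A8, 7 members above 3 on both plastic arrays lay below 3 on all 9 Matrigel arrays: SLC4A10, SLC12A2 probe 1, SLC26A2 probe 2, ATP6V0E1, ATP6V1C2, CA3 and SLC4A1AP. Probes called lower in this way, which filter and floor decide, made up 6.03% of all probes, and nothing is read from these calls. In noise SDs above the zero point the 7 stood at 0.262 to 1.07 on plastic and -0.71 to 1.11 on Matrigel, within the noise on both. SLC4A1AP encodes kanadaptin, an adaptor protein that only shares the symbol stem, and read 4.57 and 9.77 on plastic. Raw intensities of the 7 were 13.7 to 46.6 on plastic and 19.7 to 85.5 on Matrigel. For 3 of them (SLC12A2 probe 1, ATP6V0E1 and ATP6V1C2) all Matrigel arrays had a higher raw reading than both plastic arrays, for 4 the raw readings overlapped, and for none were they lower. The zero points, lower on plastic as given above, moved with these levels, and their part was not tested. SLC9A3-OT1, a noncoding transcript next to SLC9A3, was the reverse case: it lay below 3 on both plastic arrays and read 7.13, 12.3 and 16.2 on Matrigel.

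**Figure D4:**
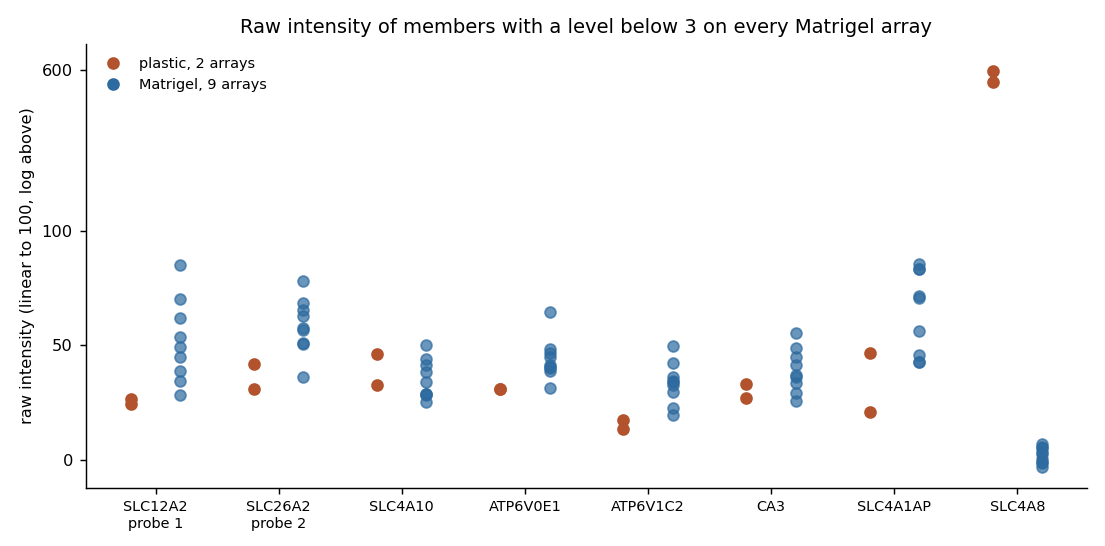
Raw intensity (linear up to 100, log above) of the 8 members with a level below 3 on all Matrigel arrays and above 3 on plastic. For 7 of them the raw readings on Matrigel overlapped plastic or were higher, and for SLC4A8 they were near 0 against 594.6 and 522.7 on plastic.

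Raw readings were also set beside the calls. All 11 members that rose had a higher raw reading on every Matrigel array than on both plastic arrays. Members that did not pass could show the same, among them SLC26A4, SLC26A8, SLC9A2 and ATP6V1B1, so this is not particular to the rises. For all 12 members that fell, the raw readings overlapped. No share over all probes was taken for these raw orders, nor for that of the members near the floor. Median raw intensity was higher on Matrigel as given above, so the direction of these 12 falls is that of the adjusted scale.

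Of the 23 calls on members above 3 in both groups, 6 passed under every setting and left-out array that gave a value: SLC4A4, SLC4A7, SLC26A11, ATP6V0A1, ATP6V1D probe 1 and CA2. Without plastic replicate 1, 14 were lost, and without replicate 2 also 14, 12 of them in both cases. Rebuilt values lost 7 (SLC4A5, SLC12A1, SLC12A7, SLC26A2 probe 1, ATP6V0E2, CA4 and CA12 probe 2). Quantile normalization lost 8 (SLC12A1, SLC12A4, ATP6V0A2 probe 1, ATP6V1G1, ATP6V1H, CA7, CA8 probe 1 and CA12 probe 2). Array weights lost 7 (SLC4A5, SLC12A1, SLC26A2 probe 1, ATP6V0E2, ATP6V1G1, CA4 and CA12 probe 2). Leaving out 1 Matrigel array ended calls of SLC12A7, CA8 probe 1 and ATP6V0E2 alone. Of the 10 genes with a pair of probes, both probes had the same sign for 7. Among these, SLC12A2 and SLC26A2 each had a probe whose sign was fixed by filter and floor. Both probes were called for 1 gene, SLC26A2, which includes such a probe. Exactly 1 probe was called for 5 genes and neither for 4.

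Next, the 12-hour array was set against days 1 to 9. Since 12 hours is a single array, it was assumed to vary like the others. The 12-hour array also had the lowest median raw intensity on Matrigel (224, against 250 to 482 later). On that array a level of 3 stood 0.766 noise SDs above the zero point, against 0.93 to 2.73 later. The part of this scale in the differences was not tested. Of 73 members, 2 were higher at 12 hours and 1 was lower, where 3.27% and 2.67% of all probes passed in these directions. Before adjustment 19 members had a p under 0.05, against 19.4% of all probes. SLC12A7, described above, was higher at 12 hours (64.2 against 42.6 to 50.9, log2 0.47). SLC26A3 read 50.5 at 12 hours and 26.3 to 37.6 later, and was higher as well (log2 0.62). Probe 1 of CA10 read 2.89 at 12 hours and 6.11 to 11.6 later, and was lower (log2 -1.60). In noise SDs above the zero point, SLC12A7 stood at 19.3 at 12 hours and 17.0 to 22.8 later. SLC26A3 stood at 15.0 and then 11.3 to 19.5, so neither was outside its later range on that scale. CA10 probe 1 stood at 0.733, within the noise, and 2.02 to 7.32 later. On plastic this probe read 2.39 and 5.17, and probe 2 of CA10 was not called. None of the 3 calls held with rebuilt values or with quantile normalization, that of CA10 was also lost with the floor at 5 or 1, and that of SLC26A3 without any 1 of days 3, 6, 7, 8 and 9.

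**Figure D5:**
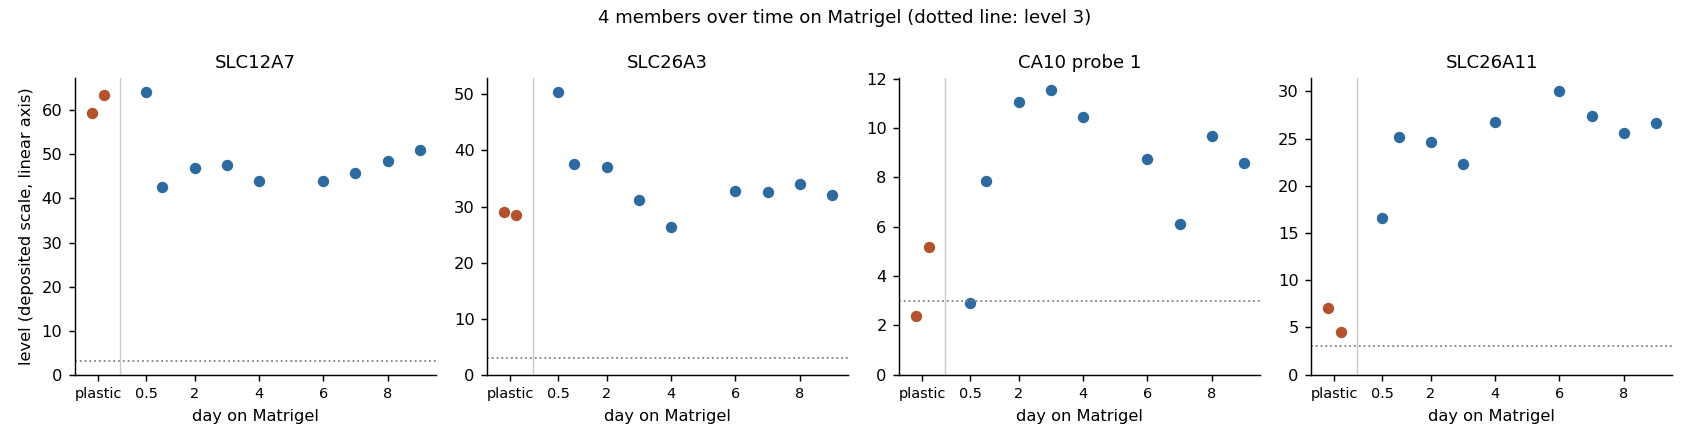
Levels of SLC12A7, SLC26A3, CA10 probe 1 and SLC26A11 on the deposited scale (linear axis) on plastic (brown, 2 arrays) and by day on Matrigel (blue, 1 array per day). SLC12A7 at 12 hours (64.2) stood with plastic and above days 1 to 9, and SLC26A11 was lowest on Matrigel at 12 hours (16.5).

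A trend over the days on Matrigel, taken on log2 of the day, was not found for any member. None of the 73 members passed with limma, 6 had an unadjusted p under 0.05, and the smallest adjusted p was 0.37. Over all probes 0.00466% passed and 8.47% had an unadjusted p under 0.05. SLC4A8 lay at the lowest value on all days.

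Other genes of acid-base control were taken from a list of 44, of which 36 were on the array with 41 probes. The fit called 8 of these higher and 7 lower, and 26 did not pass (36.6% called, against 45.2% of all probes). Among those called lower, CHP2 read 3.78 and 7.83 on plastic and below 3 on all Matrigel arrays. Filter and floor fixed its difference, and nothing is read from that call. The following 4 were picked after their values were seen. ATP6AP1, an accessory subunit of the V-ATPase, read 31.5 and 33.0 on plastic against 40.7 to 47.0 on Matrigel and rose (log2 0.44, adjusted p = 2.6e-04 with limma). CLCN3, an endosomal chloride/proton exchanger, read 8.79 and 8.56 against 14.4 to 37.4 and rose 3.03-fold (adjusted p = 0.0031). Its plastic levels were within the noise of those arrays, so the size of this rise rests on them. EZR, a linker of transporters to actin, read 53.7 and 52.1 against 26.7 to 44.6 and fell (log2 -0.67, adjusted p = 0.0025). DMXL2, a V-ATPase assembly factor, fell on 1 of its 2 probes (45.5 and 49.0 against 17.8 to 27.3; adjusted p = 1.2e-04) and did not pass on the other.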

How the data were processed

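RNA from RT4 cells on plastic (2 arrays) or Matrigel (9 arrays) had been labeled with Cy3 on spotted 1-color arrays. The authors deposited the raw intensity of every array. They also deposited log10 values: by their methods, the intensity less the zero point in units of noise SD, on a log scale and then fitted between arrays by robust regression. These log10 values were the main source. On each array the deposited value of every member lay within 0.05 on the log10 scale of the running median of the deposited values of probes with like raw intensity, which checks order within an array and not the scale between arrays.

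Levels on the deposited scale were set to at least 3 and log2 values were fitted with limma 3.58.1 in R 4.3.3 (eBayes with a trend, Benjamini-Hochberg adjustment over 21480 probes above 3 on at least 2 arrays). The comparisons were plastic against Matrigel, 12 hours against days 1 to 9, and a slope on log2 day. Alternatives were values rebuilt from the raw intensity (robust regression of MASS), normexp with quantile normalization, floors at 1 and 5, no filter or a stricter one, array weights, and leaving out each array.

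The zero point of an array was read as the raw value that best separated probes at its lowest deposited value. Gene symbols came from the annotation of the array. Those with several symbols were not used (2 probes). Promoter windows are RefSeq sequences of GRCh38.p14. No protein or probe sequences were used here.

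Members, lists and the rule for named genes were chosen with earlier results of these data known. Named were all SLC4A genes, up to 3 called genes in each direction of the other families, genes called at 12 hours or in the trend, and 10 further genes of a list. A further 6 (ATP6V0A1, ATP6V0B, ATP6V1C2, ATP6V1G1, SLC4A1AP and SLC9A3-OT1) and the genes of the list of 44 were named after their values were seen. The number of arrays limits the precision.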

Additional observations from a re-analysis of the deposited data

Results flagged for a closer look

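In 6 of 40 sets of 9 Matrigel values examined, 1 array stood apart from the other 8 by Dixon's 95% criterion. Chance flags about 1 in 20 such sets, but these members were named partly for their calls at 12 hours or after their values were seen, so the number cannot be set against chance. At 12 hours SLC12A7 read 64.18 (others 42.59 to 50.91), SLC26A11 16.54 (others 22.31 to 30.01) and CA10 probe 1 2.891 (others 6.111 to 11.56). On day 3 ATP6V0B read 2.363 (others 21.36 to 35.97) and ATP6V1D probe 2 read 15.89 (others 33.39 to 45.86). On day 6 SLC9A8 read 33.9 (others 42.39 to 52.09).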

How the results depend on the processing

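Between plastic and Matrigel, 12 members were called higher and 19 lower, 1 and 7 of them below 3 in a whole group. With quantile normalization 6 rose, with rebuilt values 11 fell, and with probes above 3 on all arrays 12 fell, since the 7 members near the floor were then not tested. With 1 array left out, 5 to 15 rose and 12 to 19 fell, the lowest counts being those without a plastic array (5 risen without replicate 1 and 5 without replicate 2, 12 fallen without replicate 2). At 12 hours, 2 members higher became 0 with rebuilt values, 0 with quantile normalization and 1 with probes above 3 on all arrays, and 1 member lower became 0 under the same 3 settings and with the floor at 5, and 2 without a filter. With 1 array left out these counts were 1 to 4 and 1 to 3. No setting gave a member with a trend.

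The log2 difference of SLC4A8 was -4.15, and -2.42 with rebuilt values, -2.04 with quantile normalization, -3.41 with the floor at 5 and -5.73 with the floor at 1. Members that did not pass and changed sign were SLC4A1 (0.0214 rebuilt, 0.0141 quantile), ATP6V0D1 (0.0617 and 0.0282), SLC12A2 probe 2 (0.0031 rebuilt), ATP6V1B1 (-0.0081 quantile), CA8 probe 2 (-0.0714 quantile; -0.46 to 0.88 with 1 array left out) and CA10 probe 2 (0.0119 rebuilt, 0.0186 with array weights; -0.1158 to 0.0864 with 1 array left out). Over all probes 50.4% of calls were higher, 61.4% with rebuilt values, where the median log2 moved to 0.12, and 42.9% with quantile normalization. The causes were not tested.

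No paired analysis was possible because the labels give replicate numbers to the plastic arrays alone. Dim readings limit the members near a level of 3, whose size of change depends on the floor.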
